A study of Caenorhabditis elegans with 2 samples.

Results

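Of the 2754 peaks in the deposited list of UNC-62 binding sites in C. elegans embryos, 2088 lay on the 5 autosomes, and 438 of these (21%, 95% exact interval 19.2 to 22.8) were distal intergenic. A peak was counted as distal intergenic when its summit lay outside every protein-coding gene body and more than 2000 bp from every protein-coding gene start in the annotation. The other 1650 autosomal peaks, used for comparison, comprised 930 intergenic peaks within 2000 bp of a start and 720 peaks inside protein-coding genes. The choice rests on position alone and uses no signal value. The word intergenic holds for protein-coding genes only, since 54 of the 438 summits lay inside an annotated non-coding gene.

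UNC-62 is a homeodomain transcription factor of the Meis/Prep class. It acts with PBC-class homeodomain partners such as CEH-20, and with Hox proteins, in embryonic patterning, cell migration and the development of neurons, muscle and gut. Meis-class factors recognise TGACAG, and a Meis factor paired with a PBC factor recognises a longer composite of a TGAT part and a TGACAG part. C. elegans genes mostly lie close together, and much of the sequence far from any gene start lies in the longer gaps between genes.

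The peaks came from chromatin immunoprecipitation with sequencing, which isolates the DNA bound by a protein and reads it. The worms were strain OP600, which carries the unc-119(ed3) mutation and the integrated transgene wgIs600, made of unc-62 fused to TY1, EGFP and FLAG tags together with an unc-119 rescue. The labels give the antibody target both as unc-62 and as the tagged protein. Whole mixed-stage embryos of mixed sex formed 1 group with 2 biological replicates and no second genotype or stage, so binding could be mapped but not compared between conditions. All tissues of the embryo were pooled, and a weak peak may be binding in few cells or weak binding in many, which cannot be told apart.

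The sequences under 7 of the 15 strongest distal intergenic peaks show kinds of site found. They do not give the share of the strongest peaks that hold each kind. Each line gives the summit with the 50 bases on each side of it, 5′ to 3′, from the RefSeq genome of build WBcel235 (ce11), and the peak is named by the 2 protein-coding genes on its sides. Capitals mark TGACAG, the composite site (TGAT directly followed by TGACAG, at most 1 mismatch) and GAGAGA, all on either strand, so that CTGTCA and TCTCTC are the same motifs read on the other strand. The first and second hold a composite site, the third and the fourth hold TGACAG, and the fifth holds several GAGAGA matches. The last 2 hold none of these and were among the 8 strongest distal peaks. Of the strongest peaks not printed, those beside lntl-1, mig-6, sup-26, ent-4, fbl-1 and mca-3 also hold none, while that beside dpy-19 holds GAGAGA. What the peak between par-6 and ndx-1 holds is not given here.
exc-15 / unc-62, chrV:4491418-4491518, plus strand: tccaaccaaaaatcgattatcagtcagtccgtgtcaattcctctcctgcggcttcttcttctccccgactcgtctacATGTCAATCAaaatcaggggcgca
sqv-6 / Y50D4C.12, chrV:975293-975393, plus strand: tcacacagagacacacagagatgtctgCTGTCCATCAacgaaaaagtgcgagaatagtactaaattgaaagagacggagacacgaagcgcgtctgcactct
ipla-7 / cwn-2, chrIV:10065296-10065396, plus strand: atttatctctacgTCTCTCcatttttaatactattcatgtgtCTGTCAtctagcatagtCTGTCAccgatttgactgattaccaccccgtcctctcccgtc
T23G4.2 / T23G4.127, chrIV:13694136-13694236, plus strand: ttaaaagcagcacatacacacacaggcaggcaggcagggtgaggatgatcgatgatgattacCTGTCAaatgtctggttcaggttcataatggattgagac
din-1 / ghi-1, chrII:11635899-11635999, plus strand: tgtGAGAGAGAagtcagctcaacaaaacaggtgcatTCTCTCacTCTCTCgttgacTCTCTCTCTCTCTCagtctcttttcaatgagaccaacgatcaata
ceh-13 / lgc-12, chrIII:7559986-7560086, plus strand: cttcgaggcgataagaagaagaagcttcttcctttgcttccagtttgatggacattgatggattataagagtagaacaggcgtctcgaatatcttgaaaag
snt-1 / egl-27, chrII:6823388-6823488, plus strand: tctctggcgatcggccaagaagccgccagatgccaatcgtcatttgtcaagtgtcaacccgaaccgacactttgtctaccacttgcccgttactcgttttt

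The strongest distal peak lay upstream of unc-62 itself, the gene that encodes the factor. Its signal, a value that the authors' peak caller gave each peak, was 756 in the IDR list (the list of peaks reproducible between the replicates), 485 in replicate 1 and 276 in replicate 2. These sizes are comparable only within a list, and the peak ranked 3 in the IDR list and 4 in each replicate. The peak spanned chrV:4491237-4491660, and its summit lay 5993 bp upstream of the unc-62 start in a gap of 10917 bp. Its sequence, printed first above, holds a composite site. The strain carries an added tagged copy of unc-62, so reads from the transgene and from the native locus cannot be told apart, and the part of the extra copy in the signal of this gap was not tested.

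The second strongest distal peak lay downstream of ceh-13, the anterior (labial-class) Hox gene. It had a signal of 638 in the IDR list, 381 in replicate 1 (rank 9) and 256 in replicate 2 (rank 7). The summit was 1995 bp past the end of ceh-13 and 2136 bp upstream of lgc-12, which encodes a ligand-gated channel, so the start that faces it is not that of the Hox gene. The next strongest peak lay between par-6, which encodes a cell polarity protein, and ndx-1, a nudix hydrolase gene, and had a signal of 509. Its ranks were 12 in replicate 1 and 18 in replicate 2.

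The 15 strongest peaks included those beside mig-6, cwn-2 and fbl-1. The peak between lbp-4 and mig-6, which encodes a papilin-like matrix protein, had a signal of 482 (rank 13 in replicate 1 and 19 in replicate 2) and lay 4311 bp upstream of mig-6. The peak 2470 bp upstream of cwn-2, which encodes a Wnt ligand, had a signal of 338 and ranked 43 in replicate 1 and 52 in replicate 2. The peak 2369 bp upstream of fbl-1, which encodes fibulin, had a signal of 336 and ranked 52 and 46. All 15 strongest distal peaks ranked within the first 97 peaks of each replicate taken alone.

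The rest of the 15 had signals from 293 to 496. In falling order they lay between lntl-1 and oops-1 (496), sup-26 and R10E4.3 (420), C47A4.1 and ent-4 (405), and snt-1 and egl-27 (357). Here sup-26 encodes an RNA-binding protein, ent-4 a nucleoside transporter, snt-1 synaptotagmin of synaptic vesicles, and egl-27 an MTA-like chromatin protein that acts in cell polarity and migration. The others lay between sqv-6 and Y50D4C.12 (330), T23G4.2 and T23G4.127 (320), din-1 and ghi-1 (305), F22B7.9 and dpy-19 (305), and Y67D8C.9 and mca-3 (293). Of these genes, sqv-6 encodes an enzyme of glycosaminoglycan synthesis, din-1 a nuclear corepressor, dpy-19 a protein needed for neuroblast migration, and mca-3 a plasma membrane calcium pump.

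Distal peaks covered much the same range of signal as other autosomal peaks. Their median signal was 96.3 (range 59.9 to 756), against 93.9 for the other 1650, 93.1 for intergenic peaks within 2000 bp of a start and 95 for peaks inside genes. Of the 438, 224 (51.1%, interval 46.4 to 55.9) had a signal above the median of all autosomal peaks, where 50% of autosomal peaks lie by construction, against 820 of 1650 others (49.7%). The odds ratio was 1.06 (95% interval 0.853 to 1.32, two-sided Fisher's exact test, p = 0.629). No difference was detected, and odds ratios within that interval remain compatible with these counts. When the 2754 strongest peaks of replicate 1 alone replaced the IDR list, the odds ratio was 1.27 (p = 0.033, same exact test). That list holds a different set of distal peaks, so it is not a second ranking of the 438. With the list of replicate 2 in its place, the odds ratio was on the other side of 1 and did not pass. Distal peaks made up 19 of the 100 strongest peaks of the whole IDR list and 4 of the first 15. These intervals and p-values, and all that follow, cover counting error over peaks only: the replicates entered 1 joint list, so spread from culture to culture is not in them, and neighbouring peaks are not independent.

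Both replicates carried the distal peaks. All 438 overlapped a peak of the full replicate 1 list of 21749 peaks, and 435 overlapped one of the 30000 of replicate 2. The 3 without one lay between irld-55 and Y37A1B.7, emb-9 and chtb-1, and F21D12.3 and npax-1. Among the 2754 strongest peaks of each replicate, as many as the IDR list holds, 395 distal peaks (90.2%) were found in replicate 1 and 356 (81.3%) in replicate 2. In both at once there were 319 (72.8%, interval 68.4 to 76.9), against 71.0% of all autosomal peaks and 1164 of the 1650 others (70.5%), and the odds ratio came to 1.12 (interval 0.88 to 1.43, p = 0.374 by Fisher's exact test). Over the 435 peaks, signals of the replicates had a Spearman rho of 0.637, and over 1631 other autosomal peaks 0.617. The overlaps, ranks and rho values are descriptions, since the IDR step chose the peaks by their agreement between the same lists. They are no independent support for the peaks, and the odds ratio compares 2 sets chosen by that same step.

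**Figure D1:**
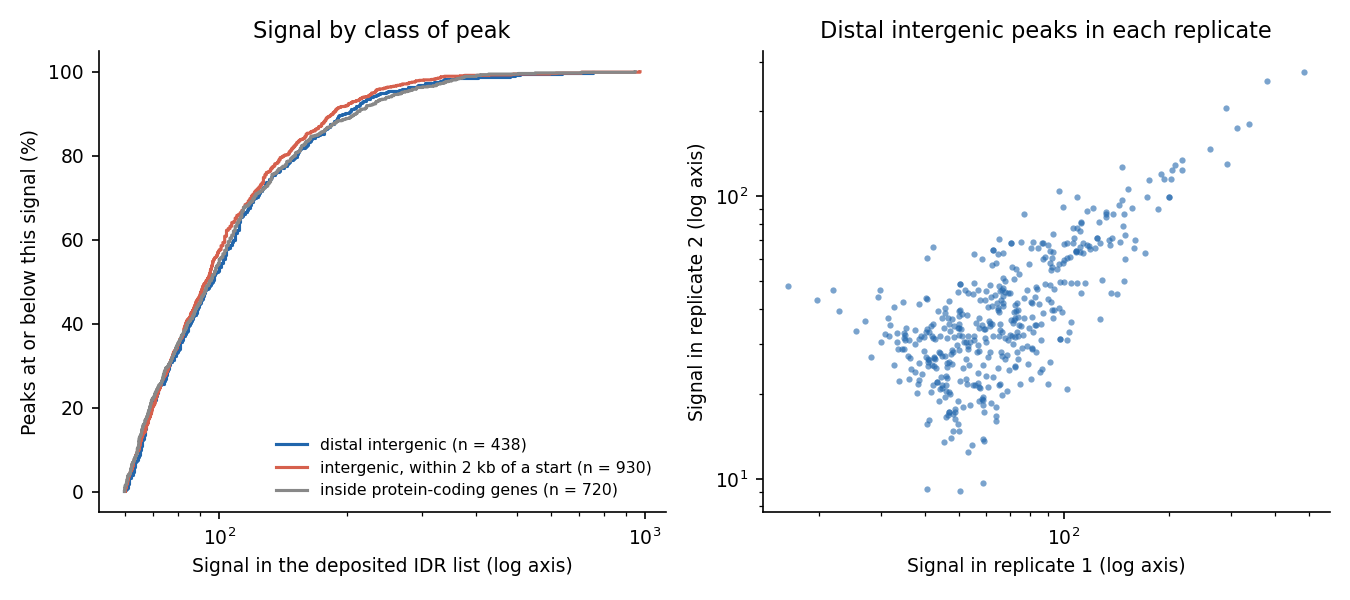
Left, share of peaks (%) at or below each signal of the IDR list (log axis) for 438 distal intergenic peaks, 930 intergenic peaks within 2 kb of a start and 720 peaks inside protein-coding genes; the 3 curves lie close together, with medians of 96.3, 93.1 and 95. Right, signal in replicate 2 against replicate 1 (log axes) for the 435 distal peaks found in both lists, each point a peak; the strongest peaks are strong in both.

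Most distal peaks, 250 of the 438, were the only distal peak of their gap, though such a gap could also hold IDR summits nearer to a start. A close neighbour of any class was more frequent at distal peaks than at other peaks. Another IDR summit lay within 2000 bp of 168 of the 438 (38.4%, interval 33.8 to 43.1), where 29.8% of all autosomal peaks have one, against 455 of the 1650 others (27.6%). The odds ratio was 1.63 (1.3 to 2.05, Fisher's exact test, p = 1.7e-05), and 1.53 (p = 2.7e-04) without the gap before egl-27, which holds the most. The call was not made at a spacing of 1000 bp, where the odds ratio was 1.34 (p = 0.0688, exact test). The median distance to the nearest other IDR summit was 3050 bp for distal peaks and 6289 bp for the others. Of 3900 gaps with distal sequence, 324 (8.31%) held a distal peak, 74 held 2 or more and 20 held 3 or more, and the 74 gaps together held 188 of the 438 peaks (42.9%). Gaps with a distal peak were longer, with a median of 7736 bp against 4046 bp for gaps without.

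The fullest gap was the 18574 bp upstream of egl-27. It held 11 distal peaks over 11545 bp and no other IDR peak, with signals between 63.2 and 357. The highest of them lay 11570 bp upstream of egl-27, and the next, at 264 and 246, lay 9066 and 12488 bp upstream. All 11 lay closer to one another than 2000 bp from neighbour to neighbour and so formed the longest run of distal summits. Of the others, 3 had signals of 203, 186 and 176, and 5 were weaker.

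The gap between exc-15 and unc-62 held 7 distal peaks and 1 nearer to the unc-62 start. Beside the summit at 756, the other 6 distal peaks had signals between 67.9 and 190, so that 1 summit stood far above its neighbours. The gap between rho-1, which encodes a RhoA-type GTPase, and zip-7, which encodes a bZIP transcription factor, held 6, with signals between 68.7 and 292. The summits of signal 292 and 131, 201 bp apart, overlap the same replicate peaks. The gap between C07F11.2 and tol-1, which encodes a Toll-like receptor, held 4, with signals between 65.4 and 210.

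The gap between the Hox genes lin-39 and ceh-13 held 4 distal peaks over 6803 bp. These 2 genes point away from each other across 19027 bp, and both starts face the peaks. The signals were 154, 129, 269 and 74.9 in order from lin-39 to ceh-13, at 7782, 8773, 12476 and 14585 bp from the lin-39 start. The strongest ranked 100 in replicate 1 and 111 in replicate 2 and lay 6552 bp upstream of ceh-13. Another 4 IDR summits of this gap lay within 2000 bp of one of the starts.

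**Figure D2:**
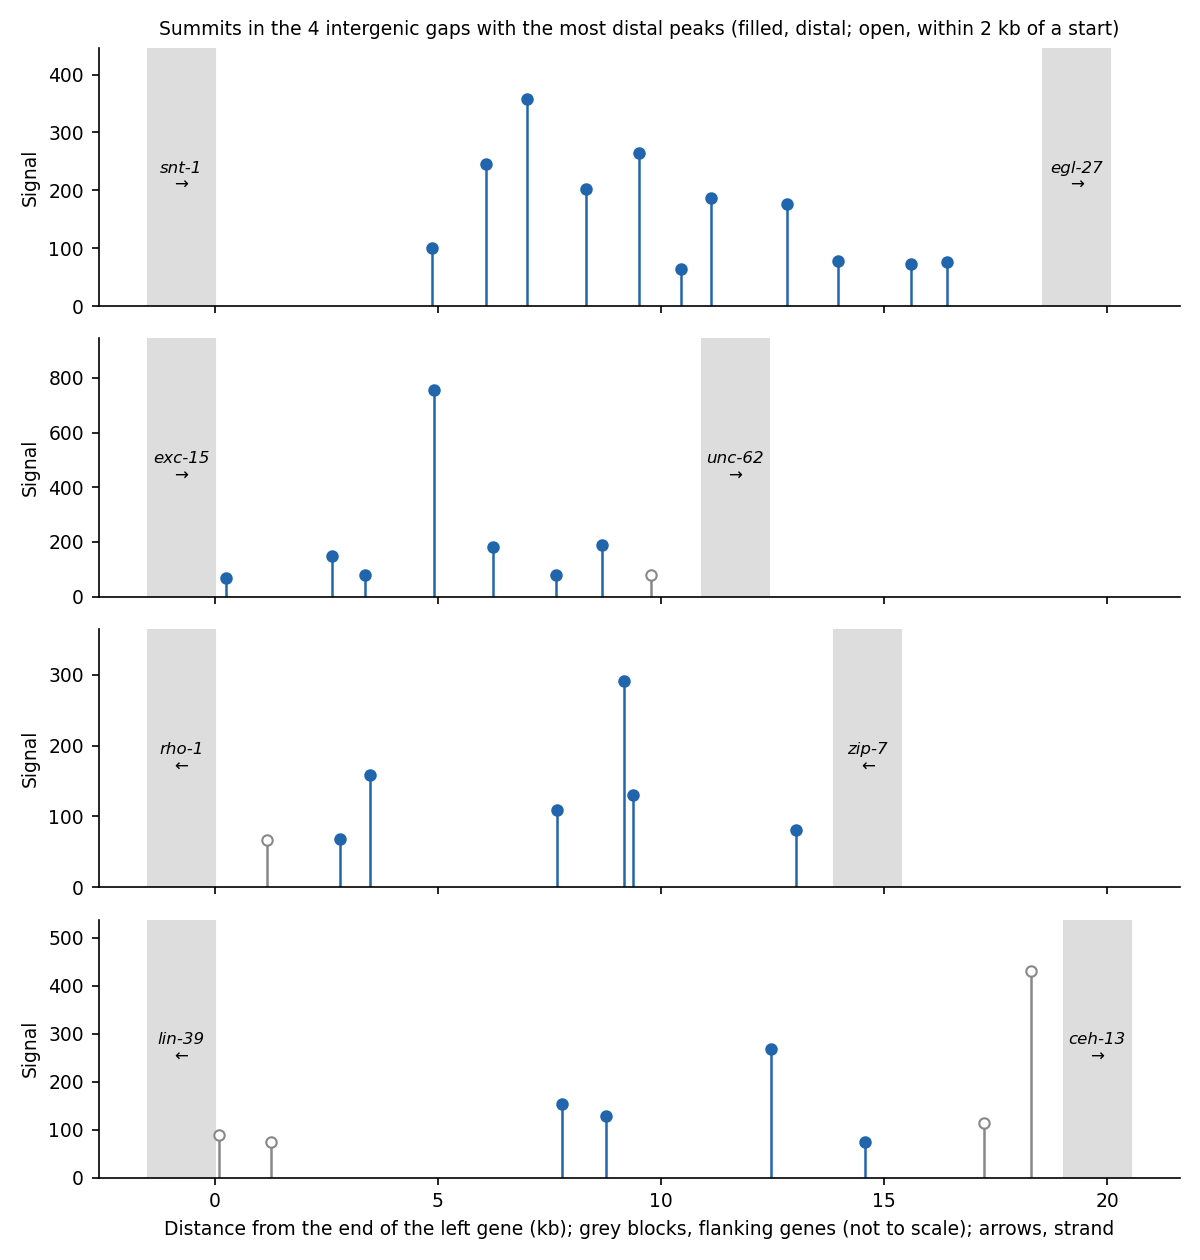
Signal of each IDR summit (vertical axis) against its distance in kb from the end of the left gene, for the 4 gaps with the most distal peaks, ties taken by summed signal. Filled points are distal peaks (11, 7, 6 and 4 from top to bottom), open points are summits within 2 kb of a start; the egl-27 gap holds filled points only, and 1 summit of the unc-62 gap stands at 756.

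Summits were denser in distal intergenic sequence than over the rest of the autosomes, and sparser than in intergenic sequence nearer to a start. The 12.8 Mb of distal sequence, 15.5% of the autosomes, held 34.1 summits per Mb against 23.7 in the other 69.7 Mb (ratio 1.44, 95% interval 1.3 to 1.6, two-sided exact binomial test, p = 5.0e-11). In the 16.7 Mb of intergenic sequence within 2000 bp of a start the density was 55.6 per Mb (ratio 0.614, 0.547 to 0.689, exact binomial test, p = 7.8e-18). With a distance of 5000 bp in place of 2000 bp, the 112 remaining peaks no longer differed from the rest by this test (ratio 1.08, p = 0.451, exact). By distance to the nearest start, density was 81.8 per Mb in the first 200 bp and 73.6 between 200 and 500 bp. The fall was not steady, with 36.8 between 500 and 1000 bp and 52.1 between 1000 and 1500 bp. Density was 38.7 between 1500 and 2000 bp, and 35.3 between 2000 and 3000 bp. It was 36.5 between 7000 and 10000 bp and 18.6 (exact Poisson interval 10.4 to 30.7) beyond 10000 bp, where 15 summits had a median signal of 152.

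The median distance to the nearest start was 3634 bp, with a range from 2002 to 19787 bp. Just inside the limit lay peaks 2002 bp from tag-196 (signal 104) and 2003 bp from C13G5.2 (signal 92.4), and just outside it peaks 1995 bp from cki-2 (signal 221) and 1989 bp from ZC513.3 (signal 93.9). The density of distal peaks also varied along the chromosomes. It was 53.2 per Mb of distal sequence (exact Poisson interval 46.1 to 61.2, 198 peaks) in the central of 3 equal parts of each autosome and 26.3 (23.1 to 29.9, 240 peaks) in the outer parts. By chromosome it ranged from 25.5 (20.3 to 31.7) on V to 45.1 (36 to 55.7) on I and 45.5 (36.5 to 56.1) on III.

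**Figure D3:**
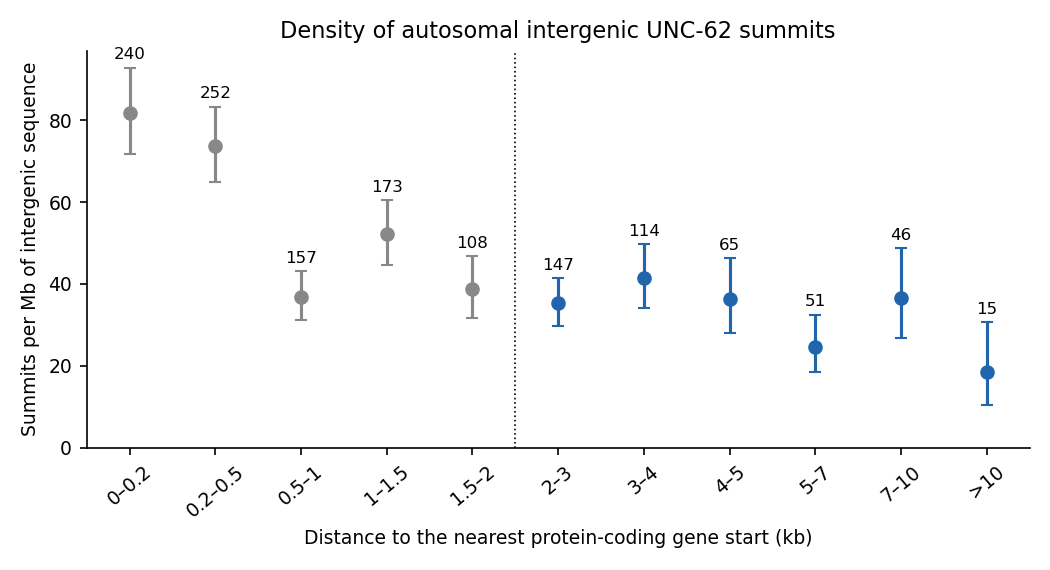
Summits per Mb of autosomal intergenic sequence (vertical axis) by distance in kb to the nearest protein-coding gene start; points are densities, bars exact Poisson 95% intervals, numbers the summits in each bin. Blue points right of the dotted line are the distal peaks; density is highest in the first 0.5 kb and between 18.6 and 41.4 per Mb beyond 2 kb.

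Few distal peaks lay between genes that point towards each other. Such convergent pairs flanked 31 peaks (7.08%, interval 4.86 to 9.9) but 18.8% of distal bases. Tandem pairs, which point the same way, flanked 276 peaks (63%, 58.3 to 67.5) and 53.2% of bases, and divergent pairs 131 peaks (29.9%, 25.7 to 34.4) and 27.9% of bases. Per Mb of distal sequence, this came to 12.9 summits between convergent genes, 40.5 between tandem and 36.6 between divergent genes. In gaps of 5000 to 10000 bp the same densities were 6.11 (1.66 to 15.6), 42.3 (35 to 50.7) and 40.5 (30.1 to 53.4), so the order of convergent against the others was the same at matched gap length. Among peaks between tandem genes, 95 of 276 (34.4%, 28.8 to 40.4) lay in the part of the gap nearer to the facing start, against 31.9% of bases, which is within the interval. In all, 317 of the 438 lay upstream of the nearest start (72.4%, 67.9 to 76.5) and 121 downstream of it, where 62.4% of distal bases lie upstream.

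Homeobox, Wnt signalling, guidance and some other transcription factor genes flanked a larger share of distal peaks than of distal bases. Chemoreceptor, F-box, C-type lectin, neuropeptide and ion channel genes flanked a smaller share. Nuclear hormone receptor genes, a transcription factor family listed apart, flanked 2.51% of peaks (1.26 to 4.45) and 4.02% of bases. Counts are of distal peaks with a listed gene on either side, beside the share of distal bases for which the same holds, and no test was made of them. The start of a listed gene need not face the peak. Homeobox genes flanked 28 peaks (6.39%, 4.29 to 9.11) and 2.76% of bases, or 4.87% and 2.7% without the gap before unc-62. Besides unc-62, ceh-13 and lin-39, they included ceh-43, a Distal-less homologue with a peak of signal 153 at 4069 bp upstream, and lin-11, a LIM homeobox gene with a peak of signal 139 at 12876 bp upstream. Hox genes flanked 9 of these peaks (2.05% against 0.535% of bases, and 1.15% against 0.418% without the gap between lin-39 and ceh-13), including 1 peak of signal 109 at 7221 bp upstream of mab-5. No distal peak lay beside ceh-20.

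Wnt signalling genes flanked 22 peaks (5.02%, 3.17 to 7.51) and 0.796% of bases, but 11 of the 22 were those of the egl-27 gap. The list used here counts egl-27, described above as encoding a chromatin protein, among Wnt signalling genes, so these shares rest in part on that choice. Without the egl-27 gap the share was 2.58% against 0.667% of bases. The other genes were led by cwn-2, then cam-1, a Ror-type receptor (signal 204, 5646 bp upstream), sfrp-1, a secreted Frizzled-related protein (signal 154), and prkl-1, a Prickle homologue (signal 111, 4338 bp upstream). Genes of axon guidance and cell migration flanked 23 peaks (5.25%, 3.36 to 7.78) and 2.12% of bases. After mig-6 these were led by oig-2 (signal 168), vab-2, which encodes an ephrin (128), ptp-3, a LAR-type receptor phosphatase (126), and unc-129, a TGF-beta-like guidance factor (126).

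Transcription factors of other families flanked 33 peaks (7.53%, 5.24 to 10.4) and 4.57% of bases. Without the gap between rho-1 and zip-7 the shares were 6.25% and 4.48%, with no interval taken. In the central parts of the autosomes they were 5.56% and 4.46%, and in the outer parts 9.17% and 4.61%. These genes were led by zip-7, lin-22, a Hairy-type repressor (signal 278, 4859 bp upstream), tlp-1 (213), ztf-6 (182) and hlh-1, the MyoD homologue (144, 2020 bp upstream). The peaks of the zip-7 gap lay past the end of zip-7, and the start that faces them is that of rho-1. Basement membrane and matrix genes flanked 6 peaks (1.37%, 0.504 to 2.96, against 0.489%; in the central parts of the autosomes 1.01% against 1.32%), among them dig-1 (133), lam-1, which encodes laminin beta (105), unc-52, which encodes perlecan, and emb-9, a type IV collagen gene (71.8). Body wall muscle genes flanked 4 peaks (0.913%, 0.249 to 2.32, against 0.296%), beside hlh-1, act-1, unc-45 and deb-1. For growth factor and Notch genes, 5 peaks (1.14% against 0.747%) lay beside let-756, which encodes a fibroblast growth factor, daf-4 and tig-3, with an interval of 0.372 to 2.64. For the muscle and the growth factor lists the share of bases lay within the interval.

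Several large gene families flank much distal sequence but few distal peaks. Chemoreceptor genes, which encode receptors of sensory neurons, flanked 9 peaks (2.05%, 0.944 to 3.86) and 8.95% of bases. Their strongest peak, of signal 182, lay between sri-5 and ztf-6. F-box genes and C-type lectin genes flanked 0 of the 438 peaks (exact upper limit 0.839%), against 2.58% and 1.49% of bases. Neuropeptide genes flanked 1 peak, beside flp-15 (0.228%, 0.00578 to 1.27, against 1.99%). Ion channel and neurotransmitter receptor genes flanked 19 (4.34%, 2.63 to 6.69, against 7.02%), the strongest beside lgc-12, npr-12 (239) and lgc-56 (171).

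Position along the chromosome moved with some of these shares. In the outer parts of the autosomes, chemoreceptor genes flanked 8 of the peaks (3.33%) and 10.5% of bases, and in the central parts 1 (0.505%) and 5.17%. Homeobox genes flanked 5.83% of peaks and 2.14% of bases in the outer parts, and 7.07% and 4.3% in the central parts. The direction was the same in each, but 7 of the 14 homeobox peaks in the outer parts were those of the gap before unc-62. Reads from the transgene cannot be told apart in that gap, and the outer share without it was not counted. Wnt genes flanked 9.6% of peaks and 1.25% of bases in the central parts but only 3 peaks (1.25% against 0.612%) in the outer parts. Of the 19 Wnt peaks in the central parts, 11 were those of the egl-27 gap alone. Of the remaining lists, 11 peaks lay beside nuclear hormone receptor genes (2.51% against 4.02%, led by nhr-20 and nhr-138), 6 beside cuticle collagen genes (1.37% against 1.21%), and 1 or 2 each beside ribosomal protein, histone and transthyretin-like genes.

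**Figure D4:**
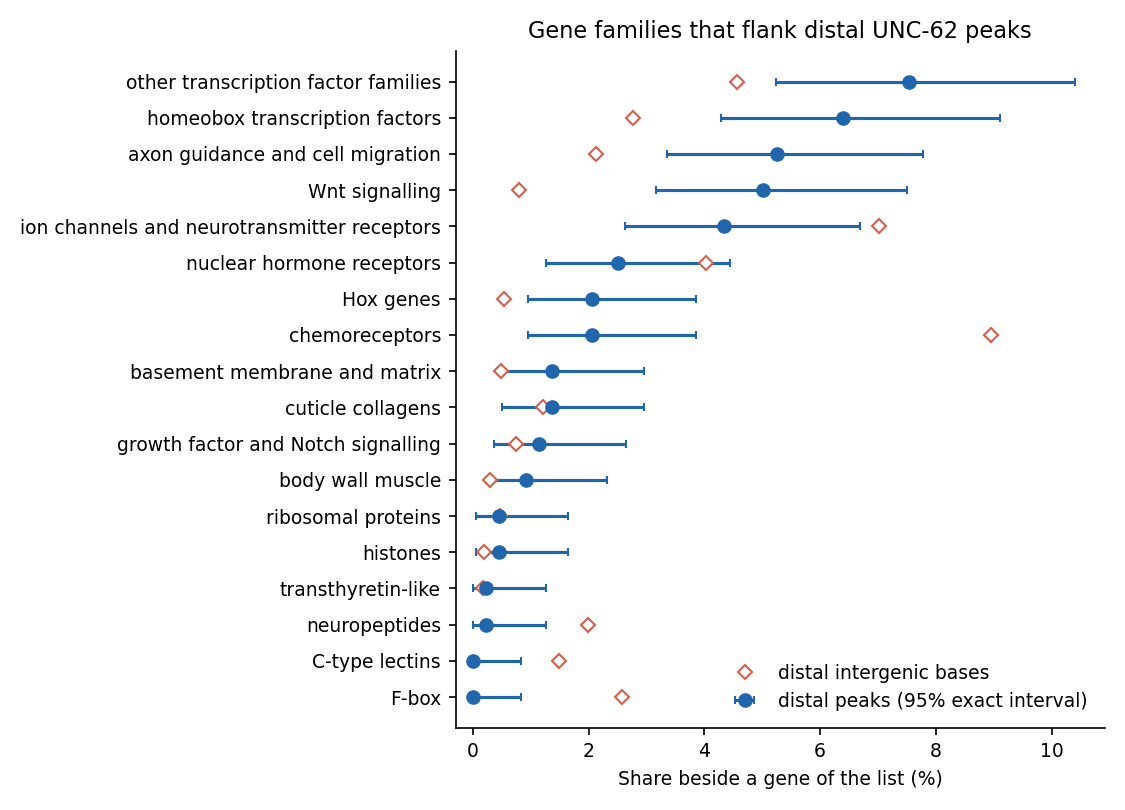
Share (%) of the 438 distal peaks with a gene of each list on either side (points, bars exact 95% intervals) and share of distal intergenic bases with the same (diamonds). Wnt, homeobox, Hox, guidance and other transcription factor genes lie right of their diamonds, and chemoreceptor, F-box, C-type lectin, neuropeptide and ion channel genes lie left of them. Nuclear hormone receptor genes, listed apart, also lie left, with the diamond inside the bar.

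Over all classes of non-coding gene, the share at distal peaks lay close to that of distal sequence, but the classes went in opposite directions. A non-coding gene covered the summit or started within 500 bp of it for 156 of the 438 peaks (35.6%, 31.1 to 40.3), against 34.8% of distal bases (ratio 1.02, two-sided exact binomial test, p = 0.726). Genes annotated as ncRNA, a class of mostly short transcripts of no assigned function, were near 106 peaks (24.2%, 20.3 to 28.5) and 6.91% of bases. They covered the summit itself at 46 peaks (10.5%, 7.79 to 13.8) and 1.45% of bases. Pseudogenes were near 3 peaks (0.685%, 0.141 to 1.99) and 15.8% of bases. Without pseudogenes and piRNA genes, left out after their shares were seen, 27.4% of peaks and 8.92% of bases had a non-coding gene near, which is a description with no test.

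Among the strongest peaks with such a gene, C31H1.97 lay over the summit between lntl-1 and oops-1 and started 52 bp from it. F31E8.8 and F31E8.14 lay over the strongest summit of the egl-27 gap, with starts 130 and 92 bp away, and F56H11.9 started 3 bp from the summit before fbl-1. Y54G2A.67, before lin-22 (signal 278), and C01B10.49, beside the linker histone gene hil-7 (signal 277), covered their summits, with starts 62 and 94 bp away. On chromosome IV, small piRNA genes started within 500 bp of the peaks of C47A4.1 and T23G4.2. Over all peaks, piRNA genes were near 43 (9.82%, 7.2 to 13) and 12.1% of bases, which is within the interval.

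Small RNA genes of other classes were near few peaks. MicroRNA genes were near 7 (1.6%, 0.645 to 3.27, against 0.4% of bases) and small nucleolar RNA genes near 10 (2.28%, 1.1 to 4.16, against 0.325%). cel-mir-51 started 47 bp from a peak of signal 182 between alh-3 and hrg-5, and cel-mir-52 covered a summit of signal 109 between irld-55 and Y37A1B.7. In the gap between lin-39 and ceh-13, cel-mir-231 started 250 bp from the summit of signal 129, and the long non-coding RNA gene linc-57 covered that of signal 154. These microRNA and linc-57 examples were chosen after their values were seen. linc-128 covered a summit of signal 204 between cutl-22 and cmd-1, and long intergenic RNA genes were near 8 peaks in all (1.83%, 0.792 to 3.57, against 1.08%).

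**Figure D5:**
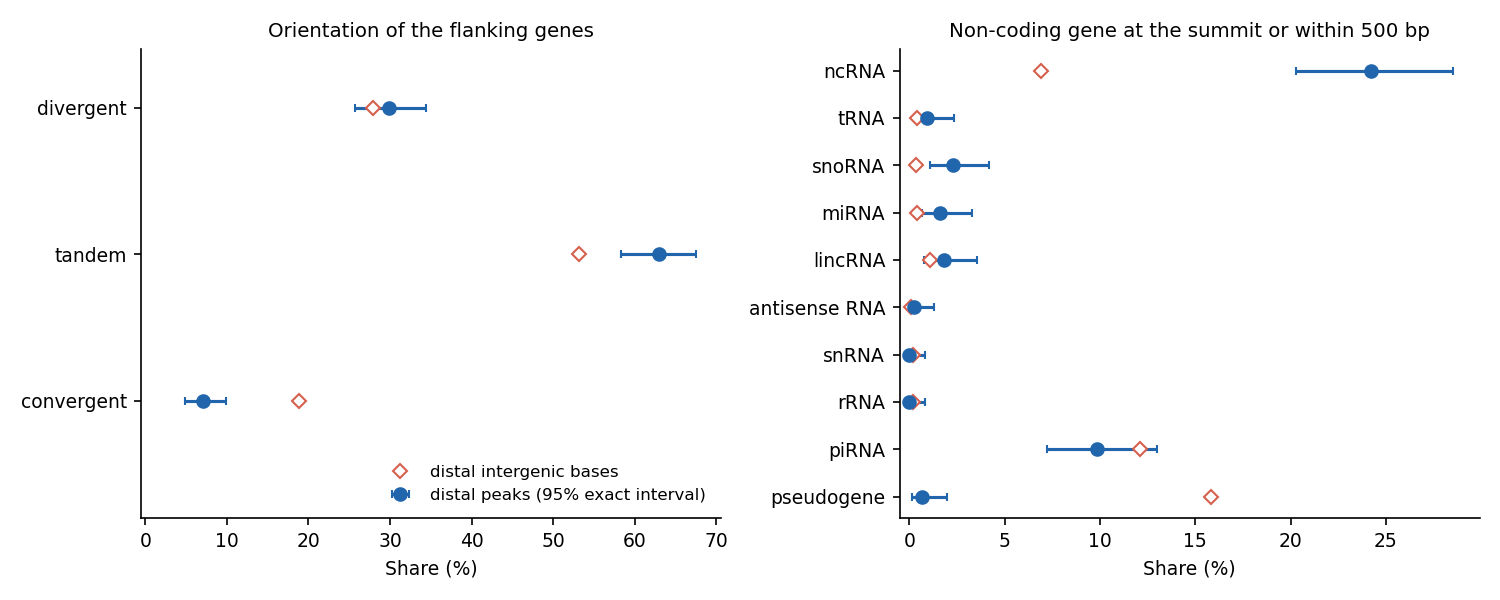
Share (%) of the 438 distal peaks (points, bars exact 95% intervals) and of distal intergenic bases (diamonds). Left, by orientation of the flanking protein-coding genes, with convergent pairs at 7.08% of peaks and 18.8% of bases; right, with a non-coding gene of each class over the summit or starting within 500 bp, with ncRNA at 24.2% and 6.91% and pseudogenes at 0.685% and 15.8%.

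The sequence at distal summits was richer in G and C than its surroundings. The median GC content within 50 bp of the summit was 45.5%, against 33.2% in windows centred 500 bp to each side, and 384 of the 438 (87.7%, 84.2 to 90.6) were above their own flanks. The other autosomal peaks also had a median of 45.5%. Repeats were rare at the summits: 17 peaks (3.88%) had over 50% of these bases soft-masked as repeats in the genome file, against 3.27% of the other peaks and 38.1% of all distal positions taken with the same width. Only 1 distal peak, between nhr-204 and lgc-26, had a further exact copy of its central 51 bp elsewhere in the genome. The sources used here do not say how repeated sequence was handled in alignment, and its part in the low counts at pseudogenes was not tested.

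Of 9 motifs, chosen with earlier results of these data known, only the composite of a PBC and a Meis site passed the adjusted test between distal and other peaks. Its p-values do not allow for that choice. It lay within 50 bp of the summit at 27 of the 438 (6.16%, 4.1 to 8.84), where 3.69% of all autosomal peaks have it, against 50 of the 1650 others (3.03%, 2.26 to 3.98). The odds ratio was 2.1 (1.25 to 3.47, Fisher's exact test, p = 0.00388, adjusted p = 0.0349 over the 9 motifs by the Benjamini-Hochberg method). The adjusted p was between 0.0571 and 0.0918, past the threshold of 0.05, in 4 of the other settings, among them leaving out the gap before unc-62 (odds ratio 1.97, adjusted p = 0.0747 from the exact test) and the list of replicate 2 alone (1.97, 0.0653). Over all distal positions, 0.603% have a composite match as near. By strength, 20 of the 219 stronger distal peaks had it (9.13%, 5.67 to 13.8) and 7 of the 219 weaker (3.2%, 1.29 to 6.47). Peaks with it included those before unc-62 and at sqv-6, whose sequences are printed above, 1 of the egl-27 gap (signal 186), and those beside cam-1 and ceh-43.

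The other 8 motifs did not pass the adjusted test at the settings used here. TGACAG was found at 67 distal peaks (15.3%, 12.1 to 19, against 11.9% of the others and 12.6% of all autosomal peaks, odds ratio 1.33, adjusted p = 0.189 from Fisher's exact test). WGATAR, the GATA factor site (W for A or T, R for A or G), was at 118 (26.9% against 21.4%, with 22.6% of all, odds ratio 1.35, adjusted p = 0.0657, exact test). It passed under 4 alternatives, with adjusted p between 0.0139, against intergenic peaks nearer to a start, and 0.0394, at a distance of 1000 bp. GAGAGA was at 157 (35.8% against 33.6%, with 34.1% of all), the E-box CANNTG at 224 (51.1% against 48.2%, with 48.8% of all), and ACGCAG at 61 (13.9% against 16.3%, with 15.8% of all). The Hox and PBC sites TGATTGAT, TGATTTAT and TGATTAAT were at 18, 11 and 6 peaks, where 3.21%, 2.59% and 0.862% of all autosomal peaks have them. CANNTG and WGATAR can overlap other motifs, and a composite match can contain TGACAG or overlap TGATTGAT.

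Against distal sequence at large, the shares at summits were higher for most motifs. Over all distal positions, 3.33% have TGACAG within 50 bp, 5.54% GAGAGA, 1.98% ACGCAG, 29.2% CANNTG and 19.3% WGATAR. The summits were also richer in G and C than that sequence, and the part of base composition in these shares was not tested. Within 100 bp of the summit, the nearest TGACAG match had its centre at a median of 27.5 bp from the summit in 89 peaks, and the composite at 22.5 bp in 34. GAGAGA was spread more widely, at a median of 34.5 bp in 240 peaks. TGACAG or the composite was within 50 bp at 85 distal peaks, and 59 held none of the 9 motifs.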

How the data were processed

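Tagged UNC-62 was profiled by chromatin immunoprecipitation with sequencing in 2 biological replicates of 1 group. Per the deposited descriptions, the authors called peaks against a control on alignments to ce11 and made the IDR list from the pooled and the replicate lists. The control library is not analysed here. The deposited signal of a peak is the authors' value and served here to rank peaks inside 1 list. With the aligner, caller, IDR threshold and depth not given in the sources used here, the limits set by depth are unknown. Lists on ce10 and the pooled list were not used.

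Coordinates are 1-based on ce11. Genes came from the Ensembl annotation of WBcel235, release 115, and bases from the RefSeq genome of the same build. The shares of distal bases were counted base by base. Fisher's exact tests compared distal with other autosomal peaks, exact binomial tests compared summits with bases, intervals are exact (Clopper-Pearson or Poisson, 95%), and motif p-values were adjusted by the Benjamini-Hochberg method. Genes were named where they flank the 15 strongest peaks or the 5 fullest gaps, as the non-coding genes at the strongest peaks, and as up to 5 of each of 18 lists by strongest peak. The members, lists and motifs were chosen with earlier results of these data known. Alternatives were other distances, starts, positions, spacings and compared peaks, parts of the list, each replicate alone, and 3 settings added after seeing the data (pseudogenes and piRNA genes left out, and each of the 2 fullest gaps left out). For each replicate alone, its 2754 strongest peaks replaced the IDR list and were sorted by position anew. Functions were tested on simulated data. Python 3.11.15, pandas 2.3.3, numpy 2.4.6 and scipy 1.17.1 were used.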

Additional observations from a re-analysis of the deposited data

How the results depend on the processing

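The number of distal peaks followed the distance, with 719 at 1000 bp, 291 at 3000 bp and 112 at 5000 bp, and was 224 in the stronger part of the list. At 5000 bp the density ratio against the other autosomal sequence was 1.08, the odds ratio for the strongest peaks of both replicates was 1.71 (p = 0.0246, exact), the convergent share was 11.6% against 22.3% of bases, and 0% had a further exact copy, as in the stronger part of the list. TGACAG passed at 1000 bp (odds ratio 1.5, adjusted p = 0.0142, exact). Of 279 values over 20 settings, 257 kept their side of the threshold or moved little. Among ratios, 0 changed direction with the test passed in either setting. A change of direction with the test passed in neither was counted as unchanged. By the same exact tests, the composite motif missed the threshold when summits inside any annotated gene except piRNA genes were left out (2.07, adjusted p = 0.0571), in the stronger part of the list (2, 0.0918), and without the gap between exc-15 and unc-62 (1.97, 0.0747). Its odds ratio was 1.97 to 2.41 with either replicate alone. With either replicate alone, the odds ratio for the stronger signals was 0.961 to 1.27, and 82.7% to 89.3% of peaks had GC above the flanks. The spacing odds ratio was 1.34 at 1000 bp. The non-coding ratio was 3.07 without pseudogenes and piRNA genes, classes left out for the shares already seen, so nothing rests on it. WGATAR passed under 4 settings, given above. The cause of these changes was not tested; most of these settings leave fewer peaks. Library depth is not known, so weak binding may be missed. No paired analysis was possible because there is only 1 group.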

Other observations

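The 5 bases TGACA, with which TGACAG begins, recur in several of the printed sequences, often without the final G. They were counted after those sequences had been seen, so the values are given with no test. TGACA lay within 50 bp of the summit on either strand at 201 of the 438 distal peaks (45.9%, exact interval 41.2 to 50.7), at 608 of the 1650 other autosomal peaks (36.8%, 34.5 to 39.2) and at 9 of the 15 strongest distal peaks. Over all distal positions the share was 17.7%, and these positions include every TGACAG.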
